A study of Mus musculus with 12 samples.

Results

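The genes described here make, regulate, move and remove cholesterol, and 33 of them were listed by symbol for their known roles. The rule that defines them uses no measured value, although they were chosen with earlier results of these data known. All 33 were found among the 19268 genes of the table. They comprise 8 enzymes that lead from acetyl-CoA to isoprenoids (the mevalonate enzymes), 11 enzymes that lead from squalene to cholesterol (the sterol enzymes), 5 regulators of the SREBP system, 4 genes of uptake and intracellular transport, and 5 genes of export, carriage, turnover and storage. Every member was above 0 in all 12 libraries, passed the filter on low values and was tested in every comparison.

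The RNA came from the forebrain, without the olfactory bulb, of male C57BL/6J mice that were juvenile (postnatal day 25, P25) or adult (postnatal day 60, P60). Wild-type (WT) mice were compared with knock-out (KO) mice, which were homozygous for a deletion of several internal exons of Shank3. SHANK3 is a scaffold protein of the excitatory postsynapse. The 4 groups, P25-WT, P25-KO, P60-WT and P60-KO, held 3 libraries each, every library from 1 mouse, and the labels name no treatment.

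The adult brain makes nearly all of its own cholesterol, because lipoproteins of the blood do not cross the blood-brain barrier. Demand is highest while oligodendrocytes build myelin, and astrocytes supply lipid to neurons on particles that carry apolipoprotein E. When sterol is scarce, the escort protein SCAP brings the membrane-bound SREBP factors to the Golgi for cleavage, and the freed part enters the nucleus and turns on the synthesis genes, whereas INSIG proteins hold SCAP in the endoplasmic reticulum when sterol is plentiful.

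Levels are given as normalized counts, the deposited values, which summed to between 30568259 and 32348554 per library. Differences are log2 fold changes of the value plus 1 from a limma fit to all genes, and a member is called higher or lower where the Benjamini-Hochberg adjusted p-value over all genes was under 0.05. Shank3 itself was at 48.0% of the WT mean in KO at P25 and at 50.2% at P60, with no overlap between the genotypes (exact two-sided permutation p = 0.1 at both ages, which is as low as 3 libraries a side allow). Mature oligodendrocyte markers summed to 219275 to 571414 and neuron markers to 310627 to 325851 per library, and no marker was at 0. P25-WT replicate 2 stood apart in part: of the 6 P25 libraries it had the highest level for 12 of the 19 enzymes and the highest mature oligodendrocyte sum. Age counts are therefore also given without it.

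Per kilobase of the longest transcript, the most abundant member was Apoe, at 27398 normalized counts per kilobase over the 12 libraries. Apolipoprotein E is the main lipid carrier of brain lipoproteins. Cyp46a1, which hydroxylates cholesterol in neurons so that it can leave the brain, followed at 3277, and Hmgcs1, which makes HMG-CoA early in the mevalonate pathway, at 2845. The regulator Srebf2 (1646) and the receptor Lrp1 (1450) came next. The lowest were the storage enzyme Soat1 (130) and the exporter Abca1 (122). The median of all genes on this scale was 134, and 31 of the 33 members lay above it.

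Replicates of a group differed little for most members. The coefficient of variation between replicates, taken as the median of the 4 groups, ran from 3.05% for Srebf2 to 15.4% for Insig1, and its middle value over the members was 6.03%. Insig1 therefore had the widest spread of the 33 beside its mean.

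The first question was how these genes differed between the juvenile and the adult forebrain. In the fit to all 12 libraries with genotype as a covariate, 24 of the 33 members were lower at P60 and 2 were higher. Over all genes tested, 19.3% were called lower and 18.3% higher. The median log2 fold change was -0.37 over the members and 0.0037 over all genes, and 28 of the 33 members had a negative value. All 19 enzymes except Ggps1 were called lower, together with Srebf2, Insig1, Lrp1, Npc2, Apoe and Cyp46a1. Ggps1 and Abca1 were called higher. For 20 members every P60 library lay below every P25 library, a pattern found in 10.8% of all genes, and no member had all P60 libraries above all P25 libraries, against 8.79% of all genes. When all libraries were brought to 1 common total, the genes called over the whole table turned from 3397 lower and 3219 higher to 2730 lower and 4038 higher, while 24 members were still called lower, against 15.5% of all genes.

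**Figure D1:**
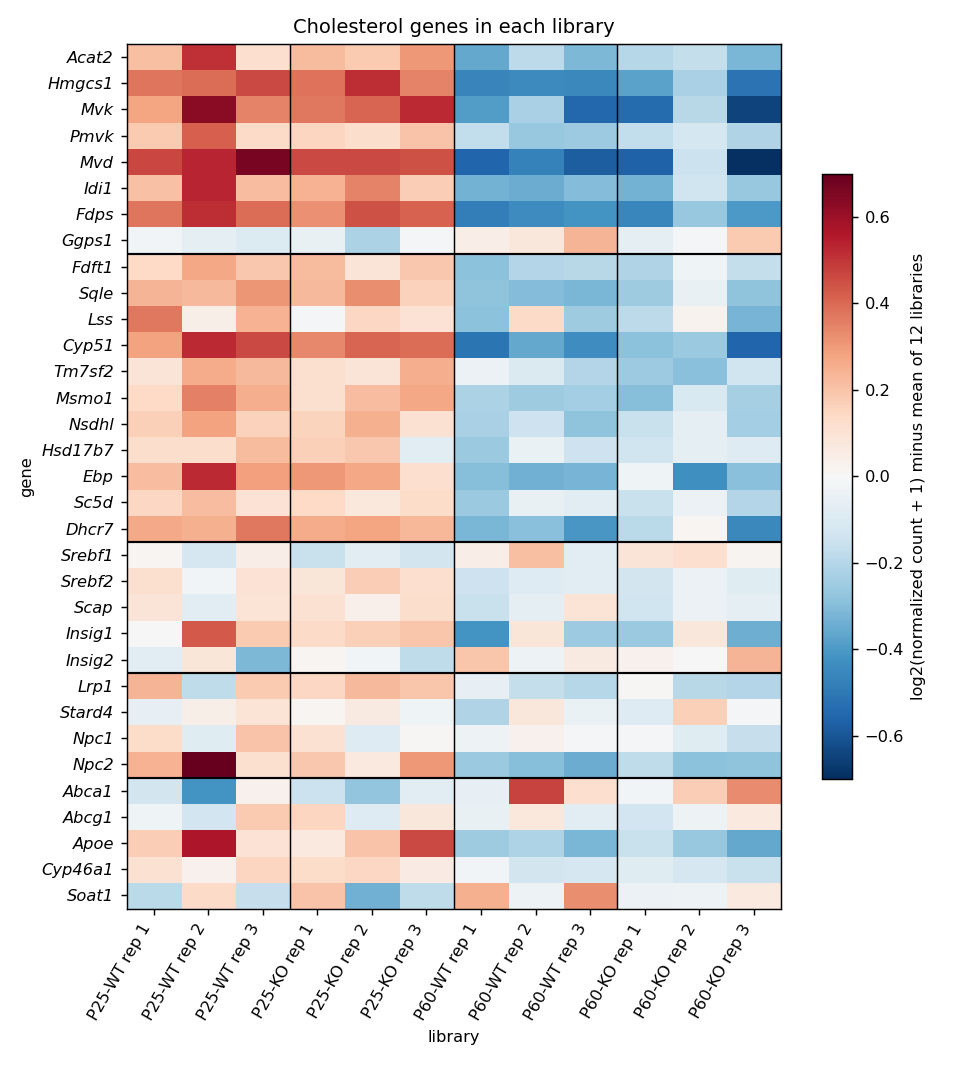
Each row is a member and each column a library; colour gives log2(normalized count + 1) minus the mean of the 12 libraries, from blue (lower) to red (higher), where values beyond the ends of the scale take its end colour, with horizontal lines between the 5 role groups and vertical lines between the 4 groups of mice. The 11 sterol enzymes and 7 of the 8 mevalonate enzymes are mostly red at P25 and blue at P60.

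Among the mevalonate enzymes the fall was largest for Mvd, which decarboxylates mevalonate diphosphate (ENSMUSG00000006517, chr8:122433601-122443422). Mvd was at 936, 980 and 1074 normalized counts in the P25-WT libraries, 933, 932 and 921 in P25-KO, 461, 488 and 453 in P60-WT and 457, 610 and 410 in P60-KO, a log2 fold change of -1.01 ± 0.083 (SE) (adjusted p = 1.07e-06). Every P60 library was below every P25 library, and P60-KO replicate 2 was the highest of the adults.

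Mvk phosphorylates mevalonate (ENSMUSG00000041939, chr5:114444269-114460591). Its level was 802, 1026 and 842 normalized counts in the P25-WT libraries, 854, 876 and 950 in P25-KO, 504, 565 and 452 in P60-WT and 455, 577 and 422 in P60-KO, and it fell by 0.85 on the log2 scale (-0.85 ± 0.087 (SE), adjusted p = 8.72e-06). The ages did not overlap, and P25-WT replicate 2 had the highest value.

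Hmgcs1 (ENSMUSG00000093930, chr13:119690379-119708260) stood at 12241, 12408 and 13005 normalized counts in the P25-WT libraries, 12316, 13546 and 12039 in P25-KO, 6868, 6945 and 6901 in P60-WT and 7301, 8078 and 6596 in P60-KO. The difference was -0.83 ± 0.049 (SE), with the smallest adjusted p-value of the members (3.37e-08). The P60-WT libraries lay close together, and the ages were far apart in both genotypes.

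Cyp51, the sterol 14-demethylase (ENSMUSG00000001467, chr5:4081145-4104746), is the sterol enzyme with the largest difference. The 12 libraries were at 2967, 3512 and 3365 normalized counts in the P25-WT libraries, 3086, 3241 and 3206 in P25-KO, 1716, 1909 and 1810 in P60-WT and 2001, 2042 and 1666 in P60-KO. Its log2 fold change was -0.80 ± 0.060 (SE) (adjusted p = 4.00e-07), again with no overlap between the ages.

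The promoters of these 4 enzymes are shown because the genes moved together and because SREBP factors are known to act with NF-Y, which binds CCAAT boxes, and Sp1, which binds GC boxes. Abca1, which was higher at P60 and is known as a target of liver X receptors, is shown beside them. The sequences are the 250 bases before the RefSeq transcription start on GRCm38.p6, read 5′ to 3′ on the gene's strand. Capitals mark every match, on either strand. The sterol regulatory element searched was TCACNCCAC. The NF-Y word was CCAAT, which reads ATTGG from the opposite strand. The Sp1 word was GGGCGG, and its reverse complement was marked too. No match overlaps another in these windows.
Hmgcs1 (chr13:119690101-119690350, plus strand): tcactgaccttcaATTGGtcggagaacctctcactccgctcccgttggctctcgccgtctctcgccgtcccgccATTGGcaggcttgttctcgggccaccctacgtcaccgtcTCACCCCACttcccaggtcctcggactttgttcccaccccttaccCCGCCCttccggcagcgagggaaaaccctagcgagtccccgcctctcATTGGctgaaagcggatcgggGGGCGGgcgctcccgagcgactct
Mvd (chr8:122443423-122443672, minus strand): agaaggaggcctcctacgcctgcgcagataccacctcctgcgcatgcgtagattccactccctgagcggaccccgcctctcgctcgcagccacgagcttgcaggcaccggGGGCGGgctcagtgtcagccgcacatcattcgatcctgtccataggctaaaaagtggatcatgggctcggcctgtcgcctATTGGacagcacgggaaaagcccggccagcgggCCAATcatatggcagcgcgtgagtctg
Mvk (chr5:114444019-114444268, plus strand): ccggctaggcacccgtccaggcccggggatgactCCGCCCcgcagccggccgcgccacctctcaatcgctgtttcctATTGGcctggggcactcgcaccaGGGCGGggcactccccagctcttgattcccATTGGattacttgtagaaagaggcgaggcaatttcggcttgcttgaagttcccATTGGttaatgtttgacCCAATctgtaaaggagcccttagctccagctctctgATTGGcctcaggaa
Cyp51 (chr5:4104698-4104947, minus strand): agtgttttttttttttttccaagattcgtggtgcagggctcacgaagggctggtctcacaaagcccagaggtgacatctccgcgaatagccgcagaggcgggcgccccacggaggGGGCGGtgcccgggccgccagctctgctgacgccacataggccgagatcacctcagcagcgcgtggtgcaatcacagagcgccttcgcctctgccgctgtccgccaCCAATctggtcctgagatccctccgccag
Abca1 (chr4:53159896-53160145, minus strand): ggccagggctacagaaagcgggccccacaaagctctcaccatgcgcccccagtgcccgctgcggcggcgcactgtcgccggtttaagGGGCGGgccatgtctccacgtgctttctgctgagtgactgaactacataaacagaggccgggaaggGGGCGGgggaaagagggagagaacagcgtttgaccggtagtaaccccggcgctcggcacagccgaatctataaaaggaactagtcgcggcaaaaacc

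The Hmgcs1 window holds 1 sterol regulatory element, which starts 137 bases before the transcription start, with 3 CCAAT and 2 GGGCGG matches. Mvk has 5 CCAAT matches, Mvd 2 and Cyp51 1, and each of the 3 has at least 1 GGGCGG match. Abca1 has 2 GGGCGG matches and no CCAAT match. Among members not shown, Ggps1, also called higher at P60, has 3 CCAAT matches. Acat2, Lrp1 and Apoe, called lower, have 0 in their windows. A link between these words and the age difference was not tested.

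Promoter windows were present for 27 members. The words were searched in the 250 bases before the start, and a gene with several starts was counted once if any window held the word. TCACNCCAC was in 1 of 27 members (3.70%), Hmgcs1, and in 1.21% of 13198 genes of the table. CCAAT was in 22 of 27 members (81.5%) against 39.7% of those genes, and GGGCGG in 23 of 27 (85.2%) against 59.2%. Counted by window, CCAAT was in 62.2% of 37 member windows and in 34.6% of 16811. Npc1, Stard4, Fdft1, Abcg1, Sqle and Fdps were not matched to a window. These are matches of letters only, in windows before the start.

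**Figure D2:**
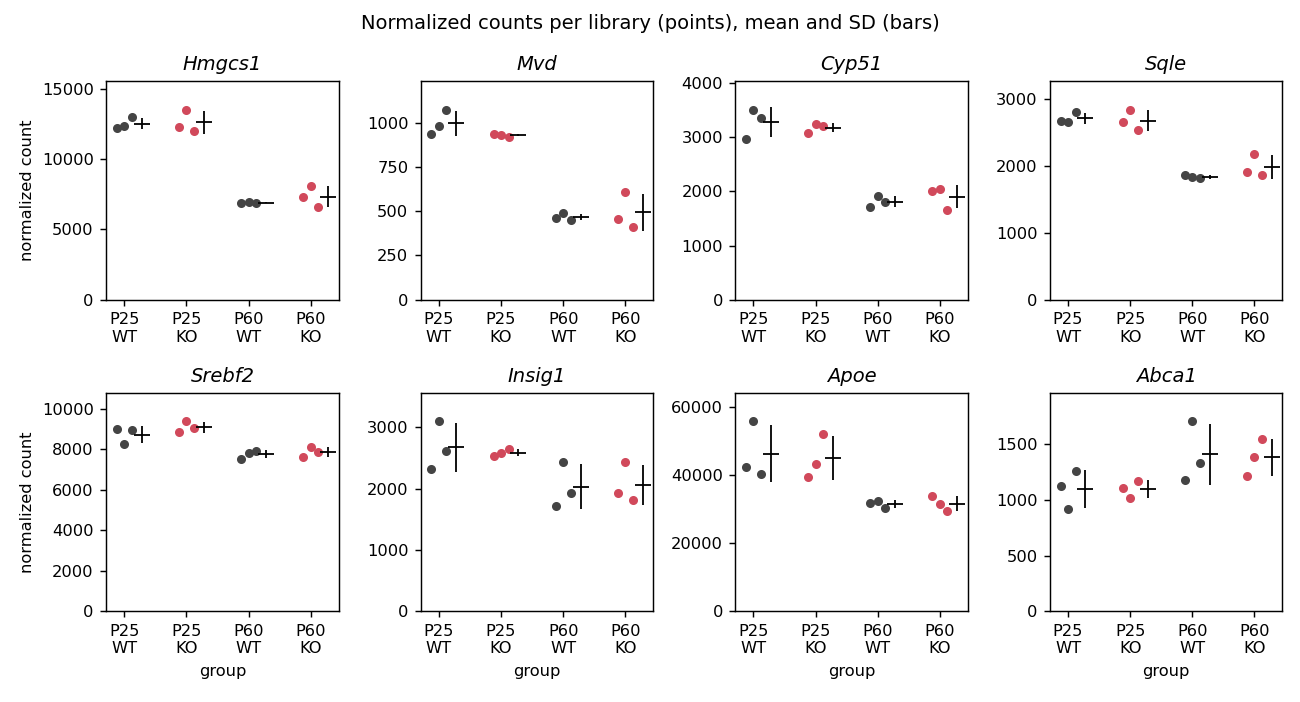
Each panel gives the normalized counts of 1 gene on an axis from 0, with 3 libraries per group as points (WT grey, KO red) and the group mean and SD as bars. Hmgcs1, Mvd, Cyp51, Sqle, Srebf2 and Apoe lie lower in all 6 P60 libraries than in all 6 P25 libraries, Insig1 overlaps between ages, and Abca1 is higher on average at P60 with overlap.

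Fdps and Idi1 were lower at P60 as well. Fdps, which joins isoprenoid units to farnesyl diphosphate, was at 2053, 2268 and 2076 normalized counts in the P25-WT libraries, 1981, 2154 and 2109 in P25-KO, 1134, 1169 and 1186 in P60-WT and 1154, 1317 and 1200 in P60-KO (-0.82 ± 0.049 (SE), adjusted p = 4.46e-08). Idi1, the isopentenyl diphosphate isomerase, was at 2183, 2736 and 2202 normalized counts in the P25-WT libraries, 2242, 2412 and 2130 in P25-KO, 1504, 1489 and 1536 in P60-WT and 1506, 1716 and 1576 in P60-KO (-0.57 ± 0.063 (SE), adjusted p = 1.49e-05). Both had no overlap between ages, although P25-WT replicate 2 was well above the other juveniles for Idi1.

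Acat2, a cytosolic thiolase that makes acetoacetyl-CoA, was at 1669, 2054 and 1563 normalized counts in the P25-WT libraries, 1684, 1642 and 1778 in P25-KO, 1126, 1272 and 1159 in P60-WT and 1257, 1285 and 1154 in P60-KO (-0.51 ± 0.065 (SE), adjusted p = 5.13e-05). The ages did not overlap. Pmvk, the phosphomevalonate kinase, ranged from 954 to 1172 at P25 and from 731 to 805 at P60 (-0.40 ± 0.058 (SE), adjusted p = 0.000145).

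Ggps1 makes geranylgeranyl diphosphate for the prenylation of proteins, a branch away from cholesterol. Its level ranged from 1322 to 1528 normalized counts at P25 and from 1469 to 1817 at P60, so the ages overlapped. The log2 fold change was 0.16 ± 0.057 (SE) (adjusted p = 0.0444). This call was lost under 9 of 19 alternatives, with adjusted p-values of up to 0.112.

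Fdft1 and Sqle open the path from farnesyl diphosphate to cholesterol, and both were lower at P60. Fdft1, squalene synthase, was at 2974, 3249 and 3070 normalized counts in the P25-WT libraries, 3141, 2874 and 3075 in P25-KO, 2207, 2336 and 2355 in P60-WT and 2328, 2641 and 2405 in P60-KO (-0.37 ± 0.048 (SE), adjusted p = 6.17e-05). Sqle, the squalene epoxidase and a rate-limiting step, was at 2673, 2659 and 2809 normalized counts in the P25-WT libraries, 2653, 2847 and 2541 in P25-KO, 1865, 1834 and 1816 in P60-WT and 1906, 2188 and 1863 in P60-KO (-0.50 ± 0.051 (SE), adjusted p = 8.07e-06). Neither gene overlapped between the ages.

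Lss, which closes squalene epoxide into lanosterol, was at 1929, 1534 and 1771 normalized counts in the P25-WT libraries, 1477, 1654 and 1604 in P25-KO, 1221, 1640 and 1256 in P60-WT and 1313, 1519 and 1193 in P60-KO. Its ages overlapped, with P60-WT replicate 2 above 3 of the 6 juvenile libraries, and its difference was -0.30 ± 0.084 (SE) (adjusted p = 0.0128).

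Msmo1, a methylsterol oxidase, was at 2538, 2941 and 2746 normalized counts in the P25-WT libraries, 2486, 2668 and 2771 in P25-KO, 1974, 1934 and 1949 in P60-WT and 1873, 2135 and 1962 in P60-KO (-0.45 ± 0.050 (SE), adjusted p = 1.63e-05). Ebp, which shifts the double bond of the sterol ring, was at 544, 673 and 574 normalized counts in the P25-WT libraries, 580, 567 and 509 in P25-KO, 381, 371 and 374 in P60-WT and 459, 348 and 383 in P60-KO (-0.57 ± 0.080 (SE), adjusted p = 0.000104). Dhcr7, which reduces 7-dehydrocholesterol, was at 1497, 1479 and 1610 normalized counts in the P25-WT libraries, 1489, 1507 and 1462 in P25-KO, 996, 1017 and 937 in P60-WT and 1094, 1255 and 911 in P60-KO (-0.55 ± 0.069 (SE), adjusted p = 4.62e-05). For all 3 genes every adult library was below every juvenile library.

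Tm7sf2, a sterol C14 reductase, was at 720, 812 and 793 normalized counts in the P25-WT libraries, 732, 723 and 808 in P25-KO, 658, 633 and 588 in P60-WT and 567, 554 and 615 in P60-KO (-0.34 ± 0.058 (SE), adjusted p = 0.000404). Nsdhl and Hsd17b7 complete the removal of methyl groups at sterol carbon C4, and Sc5d is the lathosterol oxidase. Their log2 fold changes were -0.37, -0.25 and -0.27, with adjusted p-values of 0.000177, 0.00592 and 0.000642. Of these 4 genes Hsd17b7 had overlapping ages.

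By role, 7 of the 8 mevalonate enzymes were called lower, with a median log2 fold change of -0.70 and a range of -1.01 to 0.16. All 11 sterol enzymes were called lower, with a median of -0.37 and a range of -0.80 to -0.25. The summed level of the mevalonate enzymes was 23231 ± 860 normalized counts in P25-WT, 22924 ± 792 in P25-KO, 14166 ± 173 in P60-WT and 14722 ± 1066 in P60-KO (SD, n = 3). That of the sterol enzymes was 20881 ± 626, 20175 ± 189, 14813 ± 566 and 15336 ± 1040 in the same order. The sums did not overlap between the ages.

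Some members share sequence with other genes, so their reads are less certain. Of the 31-base words of their transcripts, Acat2 shared 43.8% with other genes (Acat3), Fdft1 31.9% (chiefly Ctsb), Fdps 27.9% and Idi1 27.1% (chiefly predicted genes), and Ggps1, Tm7sf2, Hmgcs1 and Scap 11.3% to 14.9%. Of the 5 enzymes with the largest falls, Mvd, Mvk and Cyp51 shared 0% to 3.88%.

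Of the 5 regulators, 2 were called lower and 0 higher. Srebf2 encodes the factor that mainly drives cholesterol synthesis genes. Its level was 9002, 8235 and 8926 normalized counts in the P25-WT libraries, 8833, 9382 and 9040 in P25-KO, 7533, 7832 and 7918 in P60-WT and 7628, 8107 and 7849 in P60-KO, a difference of -0.19 ± 0.037 (SE) (adjusted p = 0.00124) with no overlap between the ages. Insig1, a sterol-dependent retention protein that is itself an SREBP target, was at 2314, 3102 and 2614 normalized counts in the P25-WT libraries, 2535, 2588 and 2643 in P25-KO, 1722, 2441 and 1936 in P60-WT and 1927, 2435 and 1820 in P60-KO (-0.37 ± 0.092 (SE), adjusted p = 0.00613). The second replicates of P60-WT and P60-KO reached into the juvenile range.

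Scap was at 3592, 3214 and 3612 normalized counts in the P25-WT libraries, 3634, 3468 and 3683 in P25-KO, 3033, 3222 and 3609 in P60-WT and 3070, 3285 and 3217 in P60-KO, and its difference did not pass the threshold (-0.13 ± 0.050 (SE), adjusted p = 0.0602). It passed under 2 of 19 alternatives, without P25-WT replicate 2 (-0.16, adjusted p = 0.012) and without P60-WT replicate 3 (-0.16), and its adjusted p-value reached 0.220 over the alternatives. Srebf1, whose main product drives fatty acid synthesis, was at 1814, 1653 and 1856 normalized counts in the P25-WT libraries, 1608, 1697 and 1643 in P25-KO, 1852, 2076 and 1707 in P60-WT and 1911, 1949 and 1819 in P60-KO (0.14 ± 0.054 (SE), adjusted p = 0.0565). Its ages overlapped, and it passed the threshold under 4 of 19 alternatives.

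Insig2, the second INSIG protein, was at 1190, 1335 and 1014 normalized counts in the P25-WT libraries, 1270, 1240 and 1112 in P25-KO, 1442, 1230 and 1316 in P60-WT and 1285, 1255 and 1485 in P60-KO (0.16 ± 0.071 (SE), adjusted p = 0.0844). Its P60-KO libraries lay within or above the juvenile range. The median of the 5 regulators was -0.13, with Srebf2 and Insig1 called.

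Of the genes of uptake and transport, Npc2 had the largest difference. NPC2 is the soluble lysosomal protein that hands cholesterol to NPC1. Npc2 was at 2141, 3012 and 1953 normalized counts in the P25-WT libraries, 2063, 1900 and 2234 in P25-KO, 1510, 1470 and 1424 in P60-WT and 1601, 1483 and 1488 in P60-KO (-0.55 ± 0.089 (SE), adjusted p = 0.000317). The ages did not overlap, and P25-WT replicate 2 was far above the other 5 juvenile libraries.

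Npc1, the membrane partner that exports cholesterol from lysosomes, was at 2611, 2248 and 2746 normalized counts in the P25-WT libraries, 2572, 2246 and 2397 in P25-KO, 2333, 2438 and 2375 in P60-WT and 2367, 2247 and 2136 in P60-KO, and its difference did not pass the threshold (-0.090 ± 0.054 (SE), adjusted p = 0.206). It passed without P25-WT replicate 2 (-0.13, adjusted p = 0.0324, against up to 0.540 over the alternatives). Lrp1, an endocytic receptor for apolipoprotein E particles, ranged from 18978 to 25269 at P25 and from 18607 to 21550 at P60, and was called lower (-0.27 ± 0.065 (SE), adjusted p = 0.00486). Stard4, a sterol carrier between membranes, ranged from 946 to 1053 and from 851 to 1109 (-0.039 ± 0.062 (SE), adjusted p = 0.657), and its sign changed under 2 alternatives.

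Apoe, the most abundant member, was at 42492, 55823 and 40425 normalized counts in the P25-WT libraries, 39565, 43361 and 52060 in P25-KO, 31722, 32477 and 30228 in P60-WT and 33875, 31437 and 29445 in P60-KO. Its level fell at P60 (-0.52 ± 0.078 (SE), adjusted p = 0.000173) and the ages did not overlap, although P25-WT replicate 2 and P25-KO replicate 3 were well above the other juveniles. Cyp46a1 was at 7451, 7072 and 7675 normalized counts in the P25-WT libraries, 7577, 7653 and 7213 in P25-KO, 6840, 6328 and 6368 in P60-WT and 6535, 6386 and 6201 in P60-KO, a smaller difference with little spread (-0.21 ± 0.037 (SE), adjusted p = 0.000712).

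Abca1 loads cholesterol onto lipoproteins at the cell surface (ENSMUSG00000015243, chr4:53030787-53159895). It was at 1125, 921 and 1259 normalized counts in the P25-WT libraries, 1108, 1019 and 1172 in P25-KO, 1184, 1709 and 1337 in P60-WT and 1217, 1391 and 1549 in P60-KO and was called higher at P60 (0.34 ± 0.095 (SE), adjusted p = 0.0118). The ages overlapped, since P60-WT replicate 1 and P60-KO replicate 1 lay below P25-WT replicate 3. Abca1 kept its call under all 19 alternatives.

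Abcg1, a second exporter, ranged from 2038 to 2539 at P25 and from 2043 to 2360 at P60 (-0.051 ± 0.062 (SE), adjusted p = 0.547). Soat1, which esterifies cholesterol for storage, was at 942, 1181 and 963 normalized counts in the P25-WT libraries, 1237, 850 and 950 in P25-KO, 1278, 1049 and 1346 in P60-WT and 1045, 1049 and 1129 in P60-KO (0.18 ± 0.093 (SE), adjusted p = 0.151). Neither passed the threshold.

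The next question was whether the age difference was seen in each genotype alone, where the WT and KO comparisons share no library. In WT, 16 members were called lower and 0 higher, against 4.99% and 3.66% of all genes. In KO, 23 were called lower and 2 higher, against 11.3% and 9.37% of all genes. The 16 WT calls were all called in KO in the same direction, which is 100% of the WT and 64% of the 25 KO calls, and the sign was the same in both genotypes for 32 of 33 members. The exception, Stard4, was at -0.085 in WT and 0.0077 in KO. The overlap of calls and the shared signs were not counted over all genes, so neither is shown to be particular to the members. The median over the members was -0.40 in WT and -0.32 in KO. At 1 common library total, the calls over all genes were 681 lower and 991 higher in WT and 1620 lower and 2108 higher in KO, against 877 and 644 and 1992 and 1649 as deposited, while 16 members were called lower in WT and 21 in KO.

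The 2 genotypes are set side by side here for Mvd and Hmgcs1. Mvd was at -1.09 ± 0.096 (SE) in WT (adjusted p = 0.000605) and -0.93 ± 0.13 (SE) in KO (adjusted p = 0.00159). Hmgcs1 was at -0.86 ± 0.061 (SE) and -0.79 ± 0.076 (SE) (adjusted p = 0.000209 and 0.000277). Both enzymes were lower at P60 with each genotype taken on its own.

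The 9 members called in KO but not in WT were Tm7sf2, Sc5d, Srebf1, Srebf2, Scap, Insig1, Lrp1, Abca1 and Cyp46a1. Their WT values were of like sign, for example 0.35 ± 0.15 (SE) for Abca1 (adjusted p = 0.171) against 0.33 ± 0.094 (SE) in KO (adjusted p = 0.0334). Srebf1 was at 0.080 ± 0.095 (SE) in WT and 0.20 ± 0.059 (SE) in KO (adjusted p = 0.613 and 0.0389). Calls in 1 genotype and not in the other are no difference between them, and the test of that difference, the interaction, called no member.

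**Figure D3:**
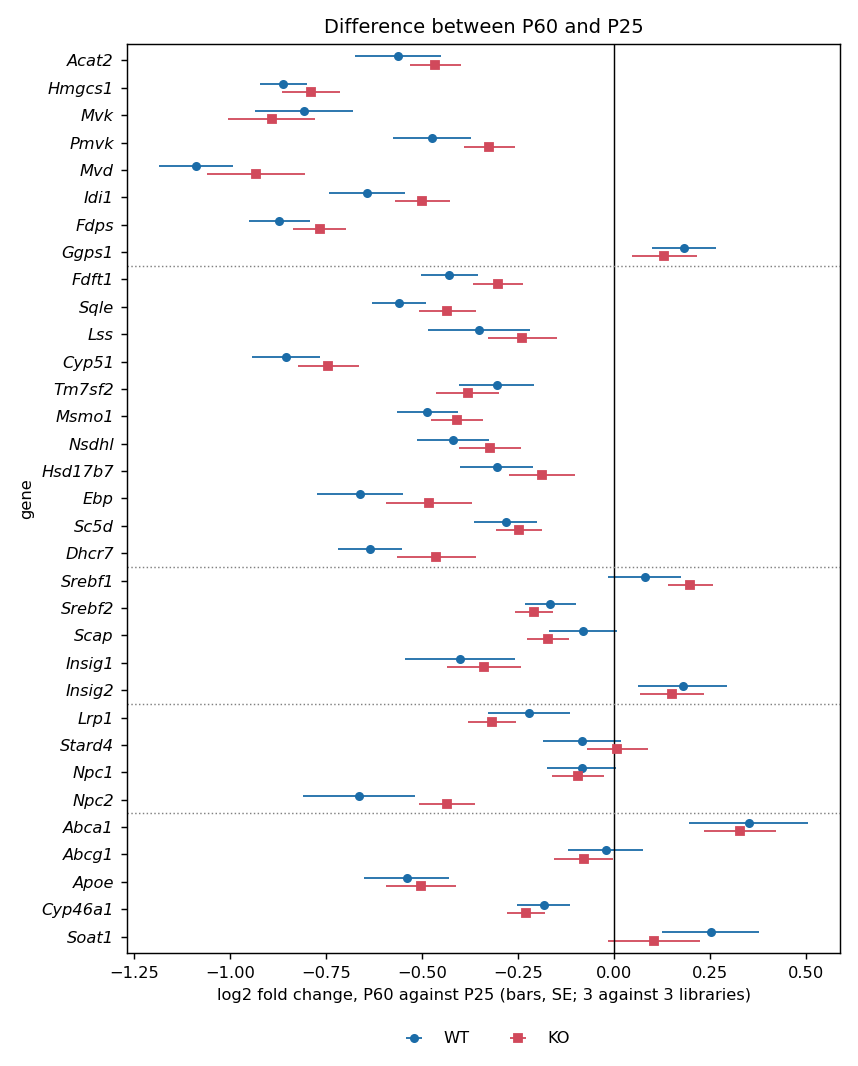
Points give the log2 fold change of each member at P60 against P25 in WT (blue circles) and in KO (red squares), with SE bars from limma and dotted lines between role groups (3 against 3 libraries). Values run from -1.09 (Mvd) to 0.35 (Abca1) in WT and from -0.93 (Mvd) to 0.33 (Abca1) in KO, and 32 of the 33 members have the same sign in both.

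The WT counts moved when single libraries were left out. The 16 members called lower in WT became 10 without P25-WT replicate 1, 6 without P60-WT replicate 1, 8 without P60-WT replicate 2 and 6 without P60-WT replicate 3, and 6 without the intensity trend. Leaving out P25-WT replicate 2 raised it to 21, with 8.05% of all genes called lower, and leaving out P25-WT replicate 3 kept it at 16. The background moved as well, from 4.99% of all genes called lower in WT. It was 0.932% without P25-WT replicate 1 and 7.54% without P25-WT replicate 3. Without P60-WT replicates 1, 2 and 3 in turn it was 0.995%, 1.42% and 0.591%, and without the trend 0.751%. In KO, the 23 called lower became 12 without the trend, against 5.67% of all genes. The 2 members higher in KO, Srebf1 and Abca1, became 0 without the trend and when P60-KO replicate 2, or either of the first and second P25-KO replicates, was left out, and 1 when any of the other three KO libraries was.

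Over both genotypes the 24 lower calls stayed 24 to 26 when each library was left out in turn, against 16.4% to 19.9% of all genes. They were 26 without P25-WT replicate 2, where the median was -0.33. The 2 higher calls became 1 on leaving out P25-WT replicate 1, or P25-KO replicate 2, or P60-WT replicate 2, or P60-KO replicate 3. Ggps1 also lost its call without P25-KO replicate 1, P25-WT replicate 2, P25-WT replicate 3 or P60-WT replicate 3. There the count stayed at 2 because Soat1, Insig2 or Srebf1 passed the threshold instead.

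Other genes of the pathway were counted to see how far the difference reached, and their counts are to be read against the 18.3% of all genes called higher and the 19.3% called lower. Of 13 other genes of SREBP processing and sterol sensing, 3 were called higher at P60. These were the SREBP proteases Mbtps2 (0.32 ± 0.076, SE) and Mbtps1 (0.14 ± 0.045), and Ufd1 (0.18 ± 0.041), a factor of protein degradation at the endoplasmic reticulum. Of 14 genes of fatty acid synthesis, 4 were called lower and 0 higher. The 3 with the smallest adjusted p-values were Fasn, the fatty acid synthase (-0.47 ± 0.048), the desaturase Fads2 (-0.40 ± 0.044) and the elongase Elovl6 (-0.20 ± 0.068). The median of these 14 was -0.069, against -0.37 for the members.

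In the isoprenoid branch, which makes dolichol, ubiquinone and prenyl groups, 2 of 14 genes were higher and 3 lower. The higher ones were Nus1, of dolichol synthesis (0.21 ± 0.048), and Pdss1, of the ubiquinone tail (0.29 ± 0.091). The lower ones were Dolk, the dolichol kinase (-0.42 ± 0.063), and the protein prenyltransferase subunits Fntb (-0.27 ± 0.052) and Fnta (-0.20 ± 0.064).

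Of 28 tested genes of other sterol handling, 5 were higher and 5 lower, close to the shares of all genes, with a median of 0.066. The receptor Lrp8 (0.44 ± 0.066) and the sterol-binding Osbpl9 (0.28 ± 0.042) and Osbpl8 (0.36 ± 0.064) led the higher ones. Clu (-0.28 ± 0.037) and Pltp (-0.41 ± 0.060), which belong to lipoprotein particles, and Lcat (-0.42 ± 0.087), which esterifies cholesterol on them, led the lower ones. The 4 pathway lists thus had medians between -0.069 and 0.066, whereas both enzyme groups were at -0.37 or below.

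Markers of cell types moved with age in the same libraries. In bulk tissue, fewer cells of a type and less RNA per cell cannot be told apart. Of 15 mature oligodendrocyte markers, 13 were called lower at P60, with a median of -1.17, for example the myelin genes Mag (-1.29 ± 0.053) and Cldn11 (-1.32 ± 0.043). Their summed level ranged from 439658 to 571414 at P25 and from 219275 to 248589 at P60. Of 10 markers of oligodendrocyte precursors and newly formed oligodendrocytes, 9 were lower, with a median of -0.59, and the sum ranged from 24602 to 26999 at P25 and from 16409.6 to 18469 at P60. Their part in the result of the cholesterol genes was not tested.

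Of 12 astrocyte markers, 6 were called lower and 0 higher, with a median of -0.13, and their sum ranged from 146699 to 163565 at P25 and from 125351 to 138690 at P60. Gfap (-0.49 ± 0.057), Slc1a2 (-0.30 ± 0.049) and Gja1 (-0.28 ± 0.050) led them. Neuron markers split, with 4 of 12 higher (Snap25, 0.27 ± 0.038) and 3 lower (Tubb3, -0.50 ± 0.037), and a median of -0.012. Of 12 microglia markers 4 were lower, such as Trem2 (-0.43 ± 0.12). Endothelial and mural markers had 1 of 11 higher (Flt1, 0.38 ± 0.12) and 1 lower (Rgs5, -0.53 ± 0.080).

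Of 10 blood and choroid plexus markers, 5 were lower, all genes of blood cells (Hba-a1, -2.21 ± 0.15), and 2 choroid plexus genes were higher (Kl, 0.62 ± 0.076; Kcnj13, 0.67 ± 0.14). The median of the 10 was -0.83. Their sum ranged from 31727 to 56767 at P25 and from 18129 to 24061 at P60. The part of these lists in the age difference of the members was not tested either.

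**Figure D4:**
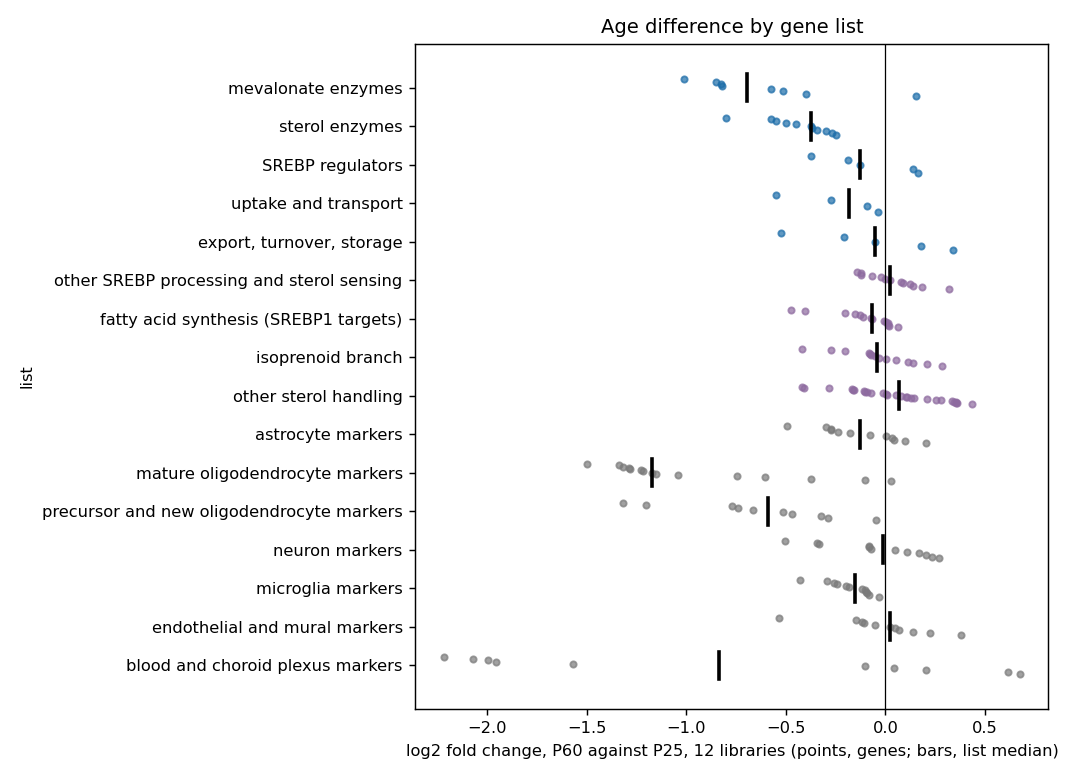
Each point is a gene and each bar a list median, as log2 fold change at P60 against P25 over 12 libraries, for the 5 role groups of the cholesterol genes (blue), 4 other pathway lists (purple) and 7 cell type marker lists (grey). The mevalonate (-0.70) and sterol enzymes (-0.37) lie left of the pathway lists, and the lowest list medians are those of the mature oligodendrocyte (-1.17) and of the blood and choroid plexus markers (-0.83), of which the 5 blood genes hold the lowest points.

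The last question was whether these genes differed between KO and WT mice. At P25, 0 of the 33 members were called between KO and WT by limma and 0 had an unadjusted p-value under 0.05. Over all genes, 0.00571% (1 gene, lower in KO) were called and 238 of 17515 had an unadjusted p-value under 0.05. The median over the members was -0.037, against -0.0082 over all genes, and 24 of the 33 were below 0. Signs over all genes were not counted at either age. Each member's 95% interval included 0, and the lowest and highest bounds over the 33 intervals were -0.52 and 0.34 on the log2 scale. Mvd was the single member whose groups did not overlap, with all KO libraries below all WT libraries by a narrow gap, against 4.76% of all genes in either direction.

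The 2 members with the smallest p-values at P25 were Lss and Srebf1, whose library values are given above (adjusted p = 0.99996 for both). Lss differed by -0.14 ± 0.10 (SE) (95% interval -0.37 to 0.087) and Srebf1 by -0.10 ± 0.078 (SE) (-0.28 to 0.074). For Lss, P25-KO replicate 2 lay above P25-WT replicate 2, and for Srebf1 P25-KO replicate 2 did so too. All 11 sterol enzymes had a value below 0, with a median of -0.040 and 0 called. Below 0 as well were 15 of 15 mature oligodendrocyte markers (median -0.15), 9 of 10 precursor and newly formed oligodendrocyte markers (-0.0087), 11 of 12 microglia markers (-0.13) and 8 of 12 astrocyte markers (-0.023), again with 0 called, and their part in the result was not tested. The median over the 33 members was -0.0029 without P25-WT replicate 2, -0.023 without P25-KO replicate 1 and -0.061 without P25-WT replicate 1.

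At P60, 0 members were called and 0 had an unadjusted p-value under 0.05, against 0.00568% (1 gene, lower in KO) and 440 of 17610 genes. The median over the members was 0.023, against 0.00013 over all genes. Of the members, 22 were above 0, whereas 24 were below 0 at P25, with 0 called at either age. With 0 called in each list, 13 of 15 mature oligodendrocyte markers (median 0.025), 6 of 10 precursor and newly formed oligodendrocyte markers (0.028) and 8 of 12 astrocyte markers (0.020) were above 0 as well, while 11 of 11 endothelial and mural markers (-0.15) and 9 of 12 microglia markers (-0.085) were below 0. Their part in the result was not tested. The lowest and highest interval bounds were -0.39 and 0.37. No member had groups that did not overlap, against 7.79% of all genes. With single libraries left out the median ran from 0.0055 to 0.061. It was 0.0055 without P60-KO replicate 2 and 0.0092 without P60-WT replicate 1, and it was 0.040 without P60-KO replicate 1, 0.053 without P60-KO replicate 3 and 0.061 without P60-WT replicate 2.

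Soat1 and Sqle had the smallest p-values at P60 (adjusted p = 0.9995 for both). Soat1 differed by -0.18 ± 0.094 (SE) (-0.39 to 0.030), with P60-WT replicate 2 within the range of the KO libraries. Sqle differed by 0.11 ± 0.069 (SE) (-0.047 to 0.26), and P60-KO replicate 3 lay among the WT libraries. The enzyme with the smallest adjusted p-value for age and the most abundant member are given for comparison. Hmgcs1 was at 0.0080 ± 0.069 (SE) at P25 (-0.15 to 0.16) and 0.080 ± 0.068 (SE) at P60 (-0.073 to 0.23). Apoe was at -0.034 ± 0.14 (SE) (-0.34 to 0.27) and 0.0033 ± 0.056 (SE) (-0.12 to 0.13).

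**Figure D5:**
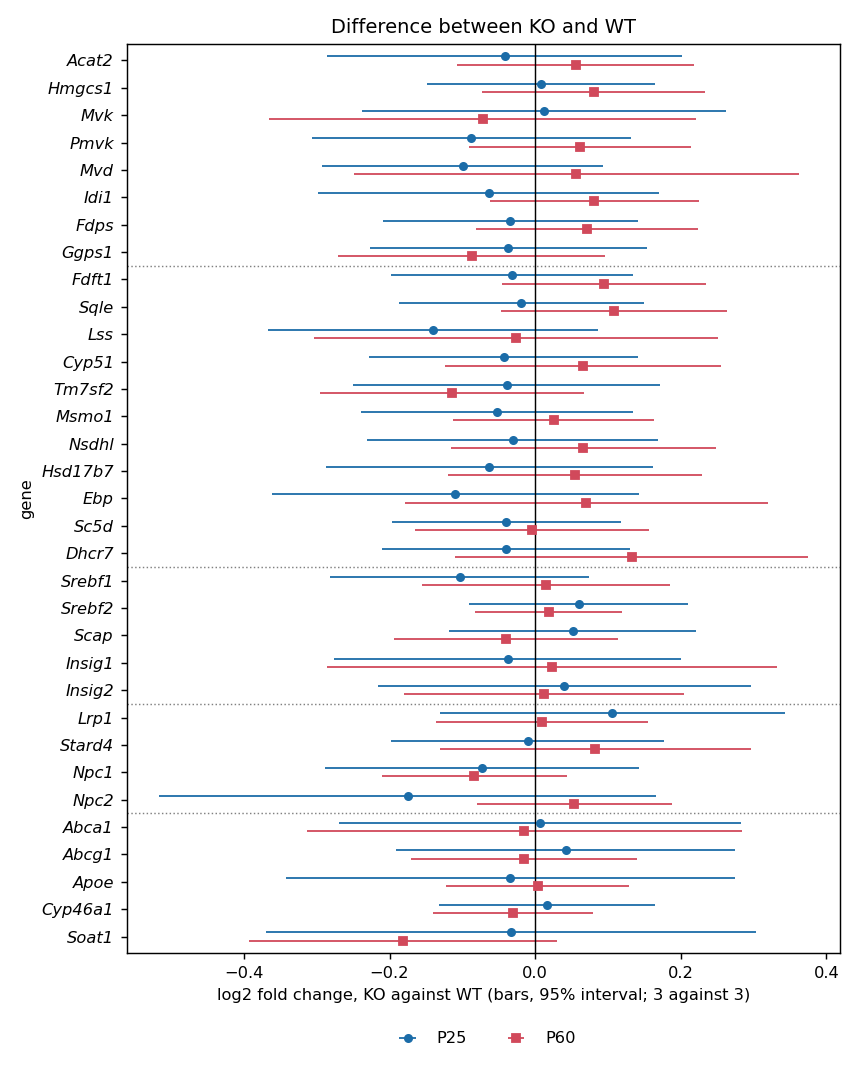
Points give the log2 fold change of each member in KO against WT at P25 (blue circles) and P60 (red squares), with 95% intervals from limma (3 against 3 libraries). Every interval of the 33 members includes 0 at both ages, and the points lie between -0.18 and 0.13.

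In the fit to both ages with age as a covariate, 0 members were called, 0 had an unadjusted p-value under 0.05, and 0.00568% of all genes were called, with 361 of 17594 under 0.05 before adjustment. The lowest and highest interval bounds were -0.31 and 0.20, and the median was -0.0041 (-0.017 without P60-KO replicate 2 to 0.019 without P25-WT replicate 2 when single libraries were left out). Below 0, with 0 called in each list, were 15 of 15 mature oligodendrocyte markers (median -0.062), 11 of 12 microglia markers (-0.12) and 10 of 11 endothelial and mural markers (-0.095), whose part was not tested. Npc1 (-0.078 ± 0.054 (SE), -0.19 to 0.036) and Tm7sf2 (-0.077 ± 0.058 (SE), -0.20 to 0.047) had the smallest p-values (adjusted p = 0.99997 for both).

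The interaction asked whether the age difference itself differed between KO and WT. It called 0 members and 0% of all genes, and 0 members and 288 of 17594 genes had an unadjusted p-value under 0.05. The median over the members was 0.078, against 0.0065 over all genes. Of the members, 21 were above 0, that is, a smaller fall or larger rise in KO. The lowest and highest interval bounds were -0.56 and 0.60. Fdft1 (0.13 ± 0.094 (SE), -0.076 to 0.33) and Npc2 (0.23 ± 0.17 (SE), -0.15 to 0.60) had the smallest p-values (adjusted p = 0.99996 for both). Above 0 as well, with 0 called in each list, were 15 of 15 mature oligodendrocyte markers (median 0.19), 7 of 10 precursor and newly formed oligodendrocyte markers (0.079), 8 of 12 microglia markers (0.088) and 8 of 12 astrocyte markers (0.029), and 8 of 11 endothelial and mural markers were below 0 (-0.12). Their part in the result was not tested. The median over the members was 0.019 without P60-KO replicate 2, 0.043 without either P25-WT replicate 2 or P60-WT replicate 1, and 0.13 without P60-WT replicate 2.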

How the data were processed

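RNA libraries of 12 mouse forebrains were made with a TruSeq RNA kit. The authors quantified transcripts with Salmon 1.1.0 and normalized with DESeq2 (1.26.0 under R 3.6.2 in the submitters' processing notes, with other versions in the study's methods), and deposited 1 table of normalized counts (signal on a count scale that is not whole). At most 28.8% of values under 20 lay within 0.05 of a whole number of steps, so whole reads were not recovered, depth is unknown and no count model was fitted. Their transcriptome and use of strand are not given in the sources used here.

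Groups and replicate numbers came from sample titles. Differences were fitted with limma 3.58.1 in R 4.3.3 (lmFit, eBayes with trend) on log2(value + 1), for genes with a mean of at least 10 in the libraries fitted, which understates changes of low genes. The fit was tested on simulated data, but the settings and outcome are not reported here, so this adds no support to the results. Age was compared over 12 libraries and within genotypes, and genotype over 12 libraries and within ages, with an interaction. Correlations of same-numbered libraries' deviations were -0.072 to 0.058, except for KO against WT at P60. There they were 0.060, 0.17 and 0.13 for replicates 1, 2 and 3, against a pairing limit of 0.1. Numbers were not treated as pairs in the main fits, and a replicate block was run as an alternative. Symbols, positions and lengths came from GENCODE M21 (GRCm38) for 19252 identifiers, and promoters from RefSeq.

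The members, lists and promoter words were chosen with earlier results of these data known. All members are named. Library values are given for the 12 members with the smallest adjusted p-value for age, the 5 regulators, Apoe, Abca1, Cyp46a1 and the 2 smallest p-values of each genotype comparison. Other lists are given as counts, with up to 3 genes per direction. Some genes of these lists are not reported here.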

Additional observations from a re-analysis of the deposited data

How the results depend on the processing

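Of the 24 members called lower at P60 over both genotypes, each kept its call and direction under all 19 alternatives (pseudocount, filter, scaling, trend, replicate block, each library left out). The 2 members called higher became 4 after scaling to 1 common library total, 1 without the intensity trend and 1 to 2 with each library left out in turn. In WT, the 16 members called lower became 6 without the trend and 6 to 21 with each library left out. In KO, the 23 called lower became 12 without the trend, and the 2 called higher became 0 without the trend, 0 in 1 fit to all 12 libraries, 1 with the replicate block and 0 to 1 with each library left out. The cause was not tested. Over all genes, the 1521 called for age in WT became 192 without the trend, 3439 in the fit to 12 libraries, and 122 (without P60-WT replicate 3) to 2403 (without P25-WT replicate 2), while the 3641 in KO became 1725 without the trend and 2093 to 3230 with each library left out. The 1 gene called between KO and WT at each age became 0 without the trend, 0 to 8 (P25) and 1 to 3 (P60) with each library left out, and 0 at P25 with the replicate block. The age difference of Stard4 turned positive after scaling to 1 common library total (0.0041) and ran from -0.076 to 0.00028 with each library left out, positive without P60-WT replicate 1, and was never past the threshold. Calls between KO and WT and of the interaction were 0 among the members under every alternative run. Replicate numbers were not treated as pairs, although deviations of same-numbered P60 libraries correlated at up to 0.17. The replicate block changed no other member count by over 1.5 times. The 3 mice per group limit the precision, and depth is unknown. Whether P25 and P60 libraries were prepared together is not given in the sources used here, so age and preparation cannot be told apart.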

Other observations

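P60-KO replicate 2 had the highest level of the 6 adult libraries for 14 of the 19 enzymes, and its enzymes were at a median of 110% of the adult mean, against 96.5% to 99.9% in the other 5 adults. Its mature oligodendrocyte sum was 247368 normalized counts, against 248589 in P60-KO replicate 1, whose enzymes were at 98.1%. Among juveniles, P25-WT replicate 2 had the highest enzymes (106%) and the highest mature oligodendrocyte sum (571414). The part of these values in the results was not tested.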
